A study of Mus musculus with 8 samples.

Results

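The 10 genes described here mark macrophages of the heart: 4 genes used as general macrophage markers (Cd68, Csf1r, Adgre1 and Lyz2), the 3 genes of complement C1q (C1qa, C1qb and C1qc) and 3 genes of resident tissue macrophages (Mrc1, Cd163 and Lyve1). They were picked out by name from a table of 55383 gene rows, and all 10 were found there. No threshold on their values was used, but the list was drawn up with earlier results of these data known. All 10 also passed the filter on low values, which left 14522 genes for testing. RNA was taken from whole hearts of C57BL/6N mice at about 5 weeks of age and sequenced in strand-specific TruSeq libraries.

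The knockouts carried the label Ssbp1-/- and the controls the label Ssbp1+/+. Ssbp1 encodes mtSSB, the single-stranded DNA-binding protein of mitochondria. In the conditional model, by the methods of the study, exon 3 of Ssbp1 is flanked by loxP sites in both groups and removed in the knockouts by Cre recombinase driven by the muscle creatine kinase promoter (Ckmm), which is active in heart and skeletal muscle. Macrophages of the heart are not muscle cells, so by design they keep the gene. The labels name the Cre cross for every mouse and do not say which mouse inherited Cre.

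There were 2 controls and 2 knockouts whose labels gave a single genotype each. For 2 further mice, 585H and 586H, the title and the genotype field contradicted each other. Each of these had 2 technical runs combined by the authors. They were placed in no group and entered no comparison, and their values are given as those of single mice. The 4 compared libraries held 19716305 to 25682093 reads, of which 6568812 to 11259234 fell on nuclear genes. The mitochondrial share was 62.7% and 66.7% in controls 1 and 2 and 58.0% and 56.2% in knockouts 1 and 2. Ssbp1 itself was at 177 and 216 normalized counts in controls 1 and 2 and at 170 and 163 in knockouts 1 and 2 (log2 fold change -0.23 with a standard error, SE, of 0.16, limma adjusted p = 0.890). All 10 macrophage markers were detected in every heart, and the cardiomyocyte markers were abundant. The Ssbp1 value checks the labels weakly, because cells without Cre and exons outside the deletion also give reads.

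Macrophages are the main resident immune cells of the heart, where they clear dying cells and debris. Their survival depends on CSF1R, the receptor for the growth factors CSF1 and IL-34. Resident macrophages of the heart that renew locally are marked by scavenger and endocytic receptors such as LYVE1, CD163 and MRC1, whereas macrophages that arrive from blood monocytes carry CCR2. C1q, the first component of the classical complement pathway, is made by tissue macrophages and is built from 3 chains, each encoded by its own gene.

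The C1q genes lie next to each other on the minus strand of chromosome 4 in GRCm38, with C1qb at 136880129 to 136886187, C1qc at 136889804 to 136893065 and C1qa at 136895917 to 136898803. Promoter sequences, from 250 bases before to 50 bases after the transcription start, were held by RefSeq (build GRCm38.p6) for 6 of the 10 genes. They were searched on both strands for the letters GAGGAA, the core of the site bound by PU.1, a transcription factor of the myeloid lineage. The letters were found in 4 of these 6 promoters and in 28.3% of the 32851 promoters of the same length. The 4 promoters with the letters are shown because they let the position of the match be read in macrophage genes whose levels are compared below. Capitals mark each match, and each sequence runs from 5′ to 3′ on the strand of its gene.
C1qb, chr4:136886151-136886450, minus strand: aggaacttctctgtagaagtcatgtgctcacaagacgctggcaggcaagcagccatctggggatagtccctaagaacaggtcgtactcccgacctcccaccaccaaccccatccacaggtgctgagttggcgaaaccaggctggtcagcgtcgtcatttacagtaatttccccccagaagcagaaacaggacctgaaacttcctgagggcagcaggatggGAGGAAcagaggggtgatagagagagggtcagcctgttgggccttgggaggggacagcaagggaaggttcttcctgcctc
C1qc, chr4:136892865-136893164, minus strand: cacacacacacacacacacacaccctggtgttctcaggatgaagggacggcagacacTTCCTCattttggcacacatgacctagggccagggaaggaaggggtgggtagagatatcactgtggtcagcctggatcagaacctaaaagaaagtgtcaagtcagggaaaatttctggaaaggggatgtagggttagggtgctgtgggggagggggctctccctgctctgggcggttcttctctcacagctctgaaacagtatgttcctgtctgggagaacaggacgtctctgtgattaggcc
Cd68, chr11:69666121-69666420, minus strand: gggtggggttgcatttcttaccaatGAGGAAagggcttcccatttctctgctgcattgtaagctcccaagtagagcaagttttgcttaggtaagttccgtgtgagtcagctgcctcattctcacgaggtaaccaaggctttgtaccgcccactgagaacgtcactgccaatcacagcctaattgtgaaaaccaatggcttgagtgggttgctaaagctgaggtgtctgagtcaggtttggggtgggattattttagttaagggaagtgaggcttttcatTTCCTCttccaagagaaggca
Mrc1, chr2:14229164-14229463, plus strand: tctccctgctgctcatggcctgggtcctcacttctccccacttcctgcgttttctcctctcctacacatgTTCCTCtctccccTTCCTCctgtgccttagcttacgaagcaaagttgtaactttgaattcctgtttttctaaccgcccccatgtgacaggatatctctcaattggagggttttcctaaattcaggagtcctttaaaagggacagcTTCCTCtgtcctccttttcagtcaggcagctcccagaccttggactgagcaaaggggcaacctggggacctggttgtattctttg
The matches began 30 bases before the start in C1qb, 193 before it in C1qc, and 180, 167 and 35 before it in Mrc1. In Cd68 1 match began 225 bases before the start, and the other 29 bases after it. The Lyz2 and Cd163 promoters did not hold these letters. Spi1, the gene of PU.1, was at 69.4 and 33.7 normalized counts in controls 1 and 2 and at 33.0 and 35.96 in knockouts 1 and 2, with overlapping groups. Spi1 was named here after its values were seen.

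Lyve1 was the member with the largest difference between the groups. LYVE1 is a hyaluronan receptor of resident macrophages that lie along vessels, and it is also made by lymphatic endothelium. Its normalized count, the read count divided by 1 scaling factor per library, was 161 and 163 in controls 1 and 2 and 72.5 and 84.2 in knockouts 1 and 2. Both knockouts were thus lower than both controls, and the 2 controls differed by less than the 2 knockouts did. The knockout mean was 51.7% lower (162 ± 1.24 in the controls against 78.3 ± 8.25, SD, n = 2 per group). On the log2(normalized count + 1) scale the difference was -1.04 (SE 0.18, 95% interval -1.48 to -0.61). Its unadjusted p from limma, 0.001004, was the 47th smallest among the 14522 genes tested, and the adjusted p of 0.310 did not pass the threshold of 0.05. The values rested on 88 to 165 reads per library. Lyve1 (chromosome 7, 110850607 to 110863239, minus strand) had no overlapping gene on its strand in the annotation.

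The mice without a group differed from the knockouts in this gene. Lyve1 was at 163 normalized counts in mouse 585H and at 145 in mouse 586H, and both lay above both knockouts. The labels of these 2 mice name the knockout once each, in the title of 586H and in the genotype field of 585H. If the titles hold, 586H is a knockout with 145 normalized counts, and if the genotype fields hold, 585H is a knockout with 163. In either reading a mouse with a knockout label lay far from the 2 knockouts compared here. The mitochondrial share was 56.2% in 585H and 63.6% in 586H (58.0% and 56.2% in the knockouts, 62.7% and 66.7% in the controls). Ssbp1 was at 152 and 211 normalized counts (170 and 163 in the knockouts, 177 and 216 in the controls). In both measures 585H lay nearer the knockouts and 586H within the range of the controls, as their genotype fields read. Which label is right was not tested. Lyve1 was the only member with both mice above both knockouts. Some lymphatic endothelial markers, given below, were also high in mouse 585H. This is a description of 2 single mice, with no test.

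Beside Lyve1, the other genes of resident macrophages differed by less. Mrc1, the mannose receptor, was at 741 and 688 normalized counts in controls 1 and 2 and at 570 and 637 in knockouts 1 and 2 (log2 fold change -0.24, SE 0.11, limma adjusted p = 0.810). Cd163, the scavenger receptor for haptoglobin-haemoglobin complexes, was at 228 and 214 in the controls against 153 and 187 in the knockouts (log2 fold change -0.38, SE 0.16, adjusted p = 0.806). In both genes the knockouts lay below the controls without overlap, and neither passed the test. A microRNA gene, Mir511, lies within Mrc1 on the same strand.

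Because the resident genes share a cell type, Lyve1 was also set against the others within each heart, which removes the scaling between libraries. Per 100 normalized counts of Mrc1 there were 21.8 and 23.7 of Lyve1 in controls 1 and 2 and 12.7 and 13.2 in knockouts 1 and 2. Per 100 of Cd163 there were 70.8 and 76.1 in the controls against 47.3 and 44.9 in the knockouts. Per 100 of the summed C1q genes there were 12.4 and 16.8 against 7.79 and 8.97. The log2 differences of these ratios were -0.81, -0.67 and -0.79, so Lyve1 was lower in the knockouts relative to Mrc1, Cd163 and the C1q sum. With 2 hearts against 2, the exact two-sided permutation p of these 3 ratios was 0.333, the smallest this design allows. Against the other resident macrophage genes of lowest p the picture was mixed. Per 100 of Stab1 there were 11.2 and 11.9 of Lyve1 in controls 1 and 2 and 6.24 and 7.03 in knockouts 1 and 2. The groups overlapped per 100 of Folr2 (176 and 202 against 191 and 147) and of Cbr2 (114 and 141 against 91.7 and 136), and per 100 of F13a1 they lay close (20.5 and 25.2 against 19.1 and 18.9). The log2 differences of the Folr2, Cbr2 and F13a1 ratios were -0.17, -0.18 and -0.26, smaller than those per Mrc1, Cd163, C1q or Stab1. These 4 ratios were added after the values were seen.

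LYVE1 is not made by macrophages alone, so the lymphatic endothelial markers were examined beside it. Flt4, the receptor for lymphatic growth factors, was at 313 normalized counts in both controls and 285 in both knockouts (log2 fold change -0.13, limma adjusted p = 0.909). Prox1, the transcription factor that sets lymphatic identity and is also made by cardiomyocytes, had a log2 fold change of -0.14 (adjusted p = 0.872). Lyve1 per 100 of Flt4 was 51.6 and 52.2 in the controls against 25.4 and 29.6 in the knockouts, a log2 difference of -0.92 with an exact permutation p of 0.333. Of the 6 lymphatic markers, all tested, 3 (Prox1, Flt4 and Pdpn) lay lower in both knockouts than in both controls, against 17.5% of all genes tested. Pdpn was at 30.3 and 26.9 normalized counts in the controls against 23.1 and 19.9 in the knockouts (log2 fold change -0.40, limma adjusted p = 0.906). The groups overlapped in Ccl21a (log2 fold change -0.08), Reln (0.07) and Mmrn1 (-0.03). Of the 6, 0 lay higher and 0 passed the test, and their median log2 fold change was -0.11. The sum of the 6 was 2368 and 2292 in the controls against 2237 and 2045 in the knockouts. Most of each sum was Prox1 (1604 and 1662 in the controls, 1517 and 1450 in the knockouts), which is not particular to lymphatic vessels here. In mouse 585H Flt4 (365), Ccl21a (247), Reln (246) and Mmrn1 (187) lay above all 4 compared hearts. Prox1 (1648) and Pdpn (27.1) lay within the range of the controls there. Mouse 586H was at 297 for Flt4, 110 for Ccl21a, 155 for Reln and 93.5 for Mmrn1. These values of single mice were added after they were seen. The part of lymphatic vessels in the level of Lyve1 was not tested.

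**Figure D1:**
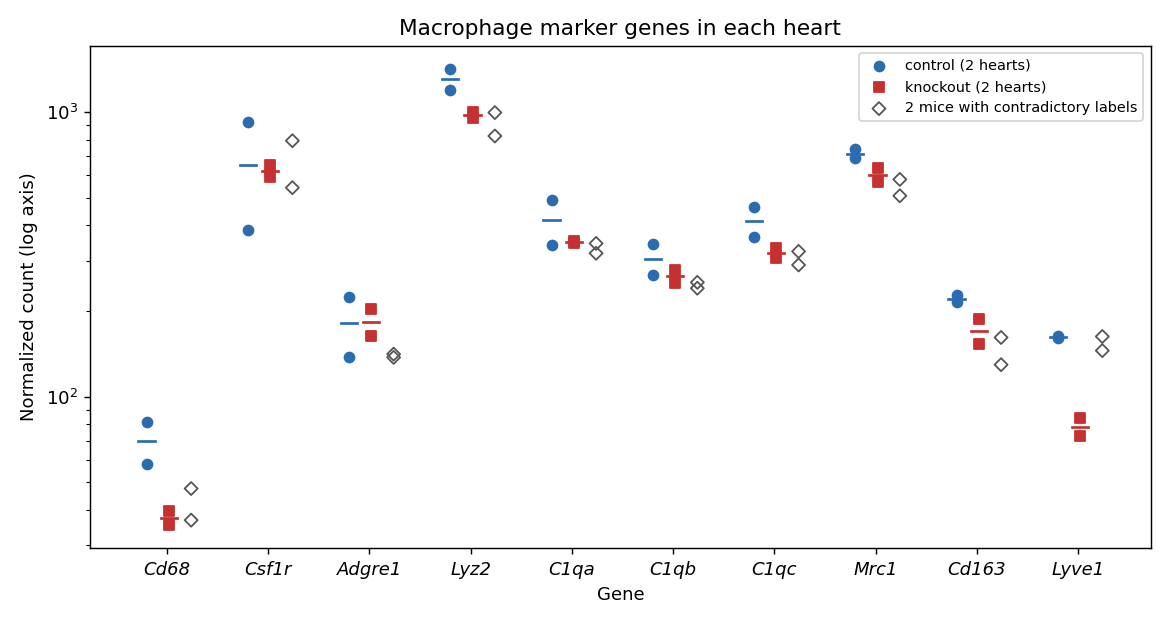
Normalized count (log axis) of each of the 10 macrophage marker genes in single hearts: filled circles are the 2 controls, filled squares the 2 knockouts, short bars the group means, and open diamonds mice 585H and 586H with contradictory labels. For Lyve1 the controls sit at 161 and 163 and the knockouts at 72.5 and 84.2 with both open diamonds near the controls, whereas the controls of Csf1r span 384 to 924 and enclose both knockouts.

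The general macrophage markers did not behave alike. Lyz2, which encodes lysozyme M, was the most abundant of the 10 genes. Its normalized count was 1423 and 1194 in controls 1 and 2 and 1006 and 957 in knockouts 1 and 2, so that the groups did not overlap and the knockout mean was 25.0% lower. The log2 fold change was -0.41 (SE 0.12, 95% interval -0.69 to -0.13, limma adjusted p = 0.680). The near-identical copy Lyz1 had 11 reads in all in the 4 libraries, against 886 to 1456 reads of Lyz2 in each, and was too low to be tested. Lyz2 is also made by neutrophils, whose markers are given with the other cell types.

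Cd68, a glycoprotein of lysosomes and endosomes in macrophages, was at 81.1 and 57.9 normalized counts in controls 1 and 2 and at 39.5 and 35.2 in knockouts 1 and 2. The knockouts lay below the controls, and their mean was 46.3% lower. The log2 fold change was -0.86 (SE 0.28, 95% interval -1.53 to -0.19, limma adjusted p = 0.754). It was the least deeply sequenced member, with 43 to 83 reads per library. Per 100 normalized counts of Lyz2 there were 5.70 and 4.85 of Cd68 in the controls against 3.93 and 3.68 in the knockouts (log2 difference -0.47, exact permutation p = 0.333).

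Csf1r, the receptor that macrophages need for survival, was at 924 and 384 normalized counts in controls 1 and 2 and at 653 and 594 in knockouts 1 and 2. The 2 controls differed 2.41-fold and both knockouts lay between them. The log2 fold change was 0.07 (SE 0.38, 95% interval -0.85 to 0.98, limma adjusted p = 0.986), while the knockout mean on the linear scale was 4.58% lower. Without control 1 the log2 fold change of Csf1r was 0.70, and without control 2 it was -0.57, so that the direction rested on which control was used. The annotation places a microRNA gene, Mir6983, on the same strand within Csf1r.

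Adgre1, the gene of the F4/80 antigen, was at 225 and 137 normalized counts in controls 1 and 2 and at 163 and 203 in knockouts 1 and 2. The groups overlapped, with a log2 fold change of 0.05 (SE 0.26, 95% interval -0.59 to 0.68, limma adjusted p = 0.986). Without control 2 the value for Adgre1 was -0.30. Per 100 of Adgre1 there were 411 and 279 normalized counts of Csf1r in the controls against 401 and 293 in the knockouts (log2 difference 0.02, exact permutation p = 1). The intervals of Csf1r and Adgre1 leave room for a difference of the size measured for Lyz2 in either direction.

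The 3 C1q genes were lower on average in the knockouts, by less than the difference between the controls for C1qa and C1qb. C1qa was at 491 and 342 normalized counts in controls 1 and 2 and at 348 and 352 in knockouts 1 and 2 (log2 fold change -0.23, SE 0.19, limma adjusted p = 0.900). C1qb was at 343 and 267 in the controls against 250 and 279 in the knockouts (log2 fold change -0.19, SE 0.17, adjusted p = 0.906). C1qc was at 463 and 364 in the controls against 332 and 307 in the knockouts (log2 fold change -0.36, SE 0.15, 95% interval -0.74 to 0.01, adjusted p = 0.806). Only for C1qc did the groups not overlap. Without control 1 the C1qa value was 0.03, on the other side of 0.

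The proportions of the C1q chains hardly moved. Taken per kilobase of annotated exon, C1qa made up 43.1% to 45.9% of the C1q transcripts over the 4 hearts. C1qb made up 30.7% to 34.0% and C1qc 21.1% to 24.7%. The range over all hearts was thus a few percentage points for each chain, whereas the summed normalized count of the 3 genes went from 1297 and 973 in controls 1 and 2 to 930 and 938 in knockouts 1 and 2. The second control lay close to the knockouts in this sum. Exon lengths are those of all annotated isoforms merged, and they set the level of these shares.

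Over the 10 genes together, 0 passed the adjusted threshold in either direction with limma, edgeR or DESeq2. Among all genes tested, limma called 0.0757% higher and 0.0413% lower in the knockouts. At an unadjusted p under 0.05, 3 of the 10 members were lower in the knockouts by limma (Lyve1, Lyz2 and Cd68) and 0 were higher, against 3.02% of all genes lower at this level. In either direction, edgeR gave 4 members at this level, with 6.07% of all genes, and DESeq2 gave 2, with 3.44% of all genes. The knockouts lay below the controls without overlap in 6 of the 10 (Cd68, Lyz2, C1qc, Mrc1, Cd163 and Lyve1) and above them in 0, against 17.5% of all genes tested that lay lower without overlap. The median log2 fold change was -0.30 over the members and 0.0024 over all genes tested. These 10 genes are read from the same cells and libraries and are not independent of one another. In whole-heart RNA, fewer macrophages and less of these transcripts per macrophage cannot be told apart.

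Much of the spread came from control 1, although for Csf1r control 2 (384) was the lowest of all 6 mice. Control 1 lay above control 2 in 9 of the 10 members, all but Lyve1, compared with 50.2% of all genes tested. Apoh and Tat, which are not members, were also highest in control 1 among the 4 compared hearts. Each was lowest in control 2, at 1.35 normalized counts, and at 37.9 in knockout 1, with knockout 2 between these values. These 2 genes were named after their values were seen. Whether all RNA of control 1 came from heart tissue was not tested, so its excess in the members may not be cardiac. In 4 members (Csf1r, Adgre1, C1qa and C1qb) the gap between the controls was larger than the difference between the groups. The summed normalized count of the 10 genes was 5079 and 3811 in controls 1 and 2, 3588 and 3636 in knockouts 1 and 2, and 3265 and 3717 in mice 585H and 586H. Without control 1 the median log2 fold change of the members was -0.19, with 3 members at an unadjusted p under 0.05 (Lyve1 and Lyz2 lower, Csf1r higher) and 10.3% of all genes. Without control 2 the median was -0.51, with 6 members at this level, all lower, and 6.48% of all genes. With the libraries scaled to equal nuclear totals, which takes the mitochondrial share out of the scaling, the median was -0.29.

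**Figure D2:**
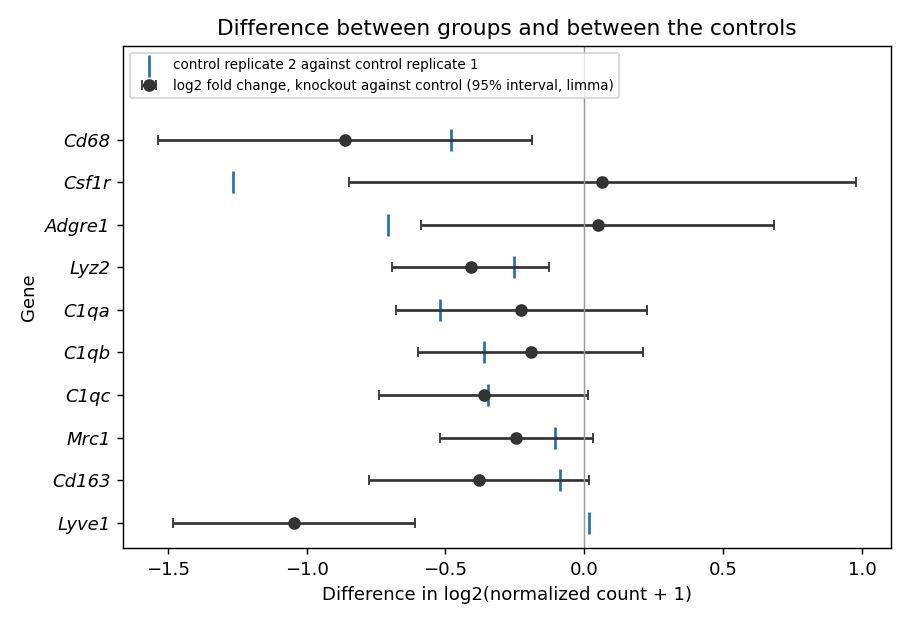
Difference in log2(normalized count + 1) for each member: black points with bars are the knockout-against-control value with its 95% interval from limma, and blue ticks are control 2 minus control 1. The intervals of Lyve1, Cd68 and Lyz2 lie below 0, the other 7 include 0, and for Csf1r, Adgre1, C1qa and C1qb the blue tick lies farther from 0 than the point.

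The levels in the controls spanned a wide range. Per kilobase of merged exon, Lyz2 was at 994 ± 123 normalized counts (SD, n = 2), followed by C1qa at 400 ± 101, C1qb at 280 ± 49.6 and C1qc at 214 ± 36.4. Csf1r (113 ± 66.1) and Mrc1 (112 ± 5.82) came next and did not differ beyond their spread. Adgre1 (55.9 ± 19.1), Lyve1 (55.5 ± 0.424) and Cd68 (55.3 ± 13.04) could not be ordered either, and Cd163 was the lowest at 40.5 ± 1.75. Secreted products, lysozyme and C1q, thus stood above the other members in level per kilobase.

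In mouse 585H 6 members lay below all 4 compared hearts, and in mouse 586H 1 did. Both mice lay below both controls in Cd68, Lyz2, C1qb, C1qc, Mrc1 and Cd163. Since one of these mice is a control under either reading of the labels, a control-labelled mouse then lay below both compared controls in these 6 genes. Lyz2, for instance, was at 825 normalized counts in 585H and at 998 in 586H, and Cd68 was at 36.7 and 47.4.

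A further 175 genes in 18 lists were set beside the members. Those under the filter on low values were not tested, and 0 of those tested passed the adjusted threshold in limma. As background for the counts below, 17.5% of all genes tested lay lower in the knockouts without overlap. At an unadjusted limma p under 0.05, 3.02% were lower. The share of all genes that lay higher without overlap is not given. Counts of genes that lay higher, above and below, therefore cannot be judged against a background. Of 16 other genes known from resident macrophages, 14 were tested. All 14 had a log2 fold change below 0, with a median of -0.44; in 9 the knockouts lay below the controls without overlap, and 5 were lower at an unadjusted p under 0.05. F13a1, the A subunit of coagulation factor XIII, was at 786 and 647 normalized counts in controls 1 and 2 and at 380 and 445 in knockouts 1 and 2 (log2 fold change -0.79, SE 0.15, limma adjusted p = 0.368). Folr2, a folate receptor that is used with Lyve1 to mark resident macrophages, was at 91.9 and 80.8 in the controls against 37.9 and 57.4 in the knockouts (log2 fold change -0.87, adjusted p = 0.750). Cbr2, a carbonyl reductase, was at 142 and 116 against 79.1 and 62.0 (log2 fold change -0.86, adjusted p = 0.647), and Stab1, the scavenger receptor stabilin 1, differed by -0.25 (adjusted p = 0.792). In each of these 4 genes both knockouts were lower than both controls. The sum over this list was 4471 and 3999 in the controls, 3276 and 3326 in the knockouts, and 3339 and 3292 in mice 585H and 586H.

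The receptors, adaptors and regulators common to myeloid cells were less uniform. All 20 were tested, 13 had a log2 fold change below 0 and 7 above, and the median was -0.20. Without overlap 6 lay lower in the knockouts and 1 higher. Fcgr2b, the inhibitory Fc receptor for IgG, was at 102 and 87.6 normalized counts in the controls against 65.1 and 52.8 in the knockouts (log2 fold change -0.68, limma adjusted p = 0.773). Fcgr3, an activating Fc receptor, was at 140 and 135 against 101 and 101 (log2 fold change -0.44, adjusted p = 0.798). Fcgr2b and Fcgr3 were the 2 genes of the list at an unadjusted p under 0.05. The gene that lay higher was Cybb, the NADPH oxidase subunit of phagocytes, at 153 and 128 in the controls against 160 and 209 in the knockouts (log2 fold change 0.38, adjusted p = 0.833); Cybb was named after its values were seen.

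Among the ligands and chemokines that act on macrophages, 9 of 15 genes were tested and all 9 had a log2 fold change below 0, with a median of -0.23. Csf1, the ligand of CSF1R, was at 823 and 718 normalized counts in controls 1 and 2 and at 552 and 666 in knockouts 1 and 2 (log2 fold change -0.34, SE 0.14, limma adjusted p = 0.806). Its groups did not overlap, and Csf1 was the only gene of the list at an unadjusted p under 0.05. Csf2, the granulocyte-macrophage growth factor, was listed at 0 in all 4 hearts.

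Genes of recruited monocytes had no common direction. Of 9 listed, 7 were tested, with a median log2 fold change of 0.09. Ccr2, the chemokine receptor of inflammatory monocytes, was at 47.9 and 21.6 normalized counts in controls 1 and 2 and at 48.6 and 61.2 in knockouts 1 and 2 (log2 fold change 0.74, limma adjusted p = 0.837). Both knockouts were higher than both controls in Ccr2, and the nearest hearts of the groups were at 47.9 and 48.6. Vcan, the gene of the matrix proteoglycan versican, had a log2 fold change of -0.56 (adjusted p = 0.813). Ccr2 was near the low end of what the filter kept.

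The MHC class II genes, with which macrophages and dendritic cells present antigen, were all tested (7 of 7) and had a median log2 fold change of 0.12. Of the 7, 4 had a log2 fold change above 0 and 3 below. In 1 of them, H2-DMb1, the knockouts lay below the controls (27.4 and 33.7 against 23.1 and 13.01 normalized counts, log2 fold change -0.77, limma adjusted p = 0.837). H2-Eb1 was at 140 and 110 in controls 1 and 2 and at 186 and 137 in knockouts 1 and 2. Its groups overlapped (log2 fold change 0.36, limma adjusted p = 0.862). Of 13 genes of inflammatory or activated macrophages, 9 were under the filter, with no value above 14.8 normalized counts in the 4 hearts, and Il6 was listed at 0. The 4 that were tested (Arg1, Lgals3, Tgfb1 and Nos2) had log2 fold changes above 0, with a median of 0.21 and overlapping groups. Arg1 was at 79.2 and 0 in controls 1 and 2 and at 43.7 and 9.95 in knockouts 1 and 2. The sign of its log2 fold change of 1.30 (SE 1.95) thus rested on the 0 in control 2. The highest Arg1 value was that of control 1, as for Apoh and Tat above. Whether macrophages were the source of Arg1 was not tested.

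Complement components, receptors and inhibitors other than C1q were taken as a list of their own. Of 14 listed, 12 were tested, 8 lay lower without overlap, 4 were lower at an unadjusted p under 0.05, and the median log2 fold change was -0.44. C3ar1, the receptor for the complement fragment C3a, was at 148 and 110.5 normalized counts in the controls against 79.1 and 84.2 in the knockouts (log2 fold change -0.64, limma adjusted p = 0.773). C1s1, a protease that acts with C1q, and Cd55, a complement inhibitor of the cell surface, had log2 fold changes of -0.40 and -0.53. The 14 lysosomal genes, which every cell uses and macrophages use heavily, had a median of -0.07, with 7 lower and 2 higher in the knockouts without overlap. The lysosomal protease gene Ctsl was higher in both knockouts (1044 and 1064 against 1393 and 1333, log2 fold change 0.37, adjusted p = 0.618).

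**Figure D3:**
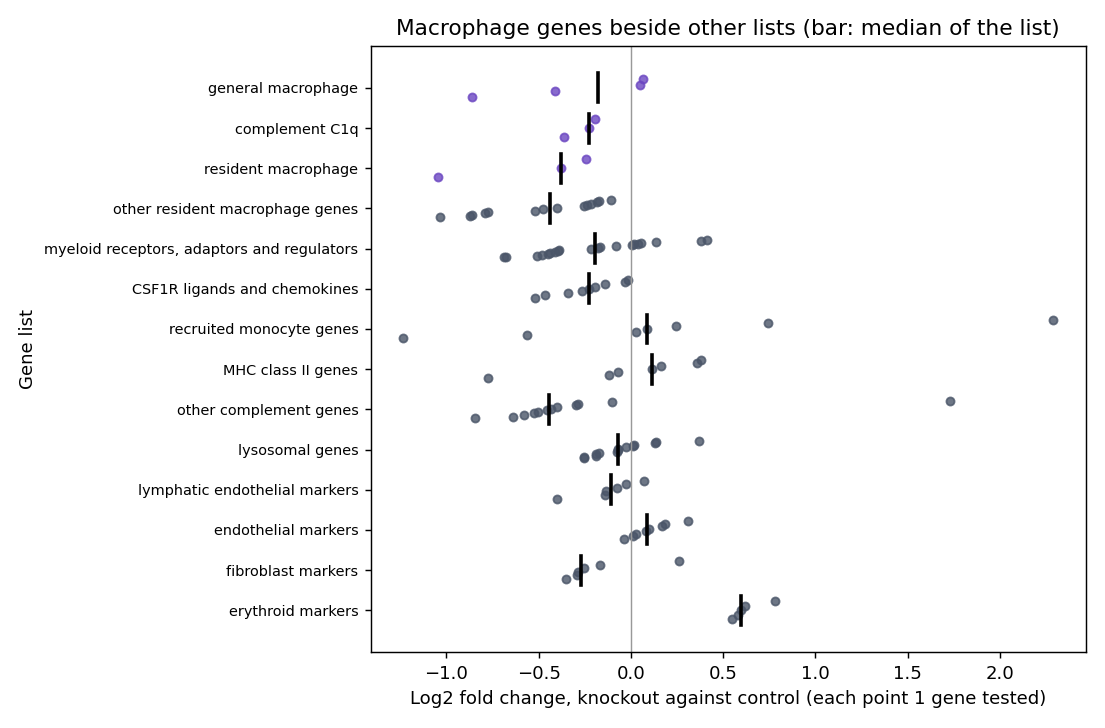
Log2 fold change, knockout against control, of each tested gene in the 3 member groups and in 11 of the 18 other lists, with each point a gene and the black bar the median of its list. The other resident macrophage genes lie wholly below 0 with a median of -0.44, whereas the recruited monocyte genes lie on both sides with a median of 0.09 and the erythroid markers lie above 0 with a median of 0.59.

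Other cell types of the heart gave these values. The 8 cardiomyocyte markers had a median log2 fold change of -0.03, the 5 mural cell markers -0.0031 and the 8 endothelial markers 0.09. Of the endothelial markers, 7 had a log2 fold change above 0 and 1 below. Without overlap 3 of them (Tie1, Cldn5 and Egfl7) lay higher in the knockouts and 0 lower. The 6 fibroblast markers had a median of -0.27, with 3 lower and 1 higher without overlap, and their sum was 12864 and 12243 in the controls against 9449 and 11488 in the knockouts. Of 8 neutrophil markers 1 was tested, Ly6g and Mpo were listed at 0 in all 4 hearts, and the sum of the 8 lay between 14.8 and 41.3. Markers of T, B and NK cells, mast cells and dendritic cells left 3 of 11, 3 of 5 and 1 of 5 genes for testing. Genes of red cells stood apart in knockout 2, with a sum over 5 genes of 41866 against 14926 in knockout 1 and 18944 and 14398 in controls 1 and 2. Without knockout 2 the median log2 fold change of the macrophage members was -0.32 (-0.30 with it). The part of these cell types in the members' levels was not tested.

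Over all 6 mice the members followed their common profile to different degrees. Each member's log2 value was correlated with the mean of the other 9. Pearson's r was 0.95 for C1qc, 0.94 for C1qa, 0.93 for C1qb, 0.91 for Cd68 and 0.90 for Lyz2. It was 0.74 for Cd163, 0.67 for Mrc1 and 0.53 for Adgre1, and lowest for Csf1r at 0.32 and Lyve1 at 0.23. These are descriptions over 6 points that share library and scaling factor, with no test. Among 10564 genes outside the members that averaged 50 or more normalized counts, those most like the members' mean profile were Pcolce (r = 0.994), Perp (0.993), Pea15a (0.989), Tnnt1 (0.988) and Tirap (0.984). The profile was highest in control 1, and these 5 genes were highest there as well. Pcolce, for example, an enhancer of procollagen processing, was at 416 and 323 normalized counts in controls 1 and 2, at 278 and 282 in knockouts 1 and 2, and at 264 and 300 in mice 585H and 586H.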

How the data were processed

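Whole-heart RNA of 6 mice had columns in the deposited table. The deposited values are a signal, normalized read counts per gene that the authors made by dividing the counts of each library by its DESeq2 size factor. Upstream the authors used STAR 2.7.3a, Salmon 1.1.0 and DESeq2 1.26.0 on GRCm38.p6, and SAMtools 1.10 and bedtools 2.26.0 per the labels. The authors' table of their own comparison (log2 fold changes, standard errors and p-values) was not used.

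Dividing the deposited signal by the value of 1 read in its library gave whole numbers for 100% of entries (tolerance 0.001), and so the reads behind each value. The test covered genes that reached 10 normalized counts in 2 or more of the 4 compared libraries. They were tested with limma 3.58.1 (R 4.3.3), two-sided, on log2(normalized count + 1) allowing for a trend of variance with level, and p-values were adjusted by Benjamini-Hochberg over all genes tested, at 0.05. This scale understates the change of low genes. With 2 hearts a group, p-values rest on the spread between single mice. Alternatives were the recovered reads in edgeR 4.0.16 or DESeq2 1.42.0, other filters, pseudocounts and scalings, limma without a trend, a replicate block and each library left out. Ratios within hearts were compared by exact permutation tests. Positions and exon lengths came from GENCODE vM21. Plots used matplotlib 3.10.9 in Python 3.11.15.

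The members and lists were chosen with earlier results of these data known. Named were all members, Ssbp1, Lyz1, up to 4 genes of smallest p per list, and the 5 genes most like the members' profile. A few of the genes this rule names are not reported here.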

Additional observations from a re-analysis of the deposited data

Results flagged for a closer look

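Gpnmb, a glycoprotein of lipid-laden and phagocytic macrophages, was at 50.7 normalized counts in mouse 585H, which has no group because its labels contradict each other. It was at 6.78 in mouse 586H, at 1.95 and 9.43 in controls 1 and 2 and at 2.47 and 3.83 in knockouts 1 and 2. The value was singled out because it was over 3 times the highest of the 4 compared hearts and at least 10, a threshold chosen after the data were seen, and it was not tested.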

How the results depend on the processing

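No member passed the adjusted threshold in limma or under any of the 14 alternatives. Of 140 member values under alternatives, 133 kept their direction and 7 changed sign. The other filters, limma without a trend and the replicate block leave each log2 fold change as in the main fit. Values under these settings could not change sign, so the count overstates how far the direction was tried. Csf1r was at -0.080 with edgeR and -0.069 with DESeq2 on the recovered reads, and between -0.57 (without control 2) and 0.70 (without control 1) with a library left out, and at -0.0028 without knockout 1. Adgre1 was between -0.30 (without control 2) and 0.40 with a library left out, and at -0.11 without knockout 2. C1qa was between -0.49 (without control 2) and 0.0315 (without control 1). With a library left out, the number of members at an unadjusted p under 0.05 was between 2 and 6 (6 without control 2), and the median log2 fold change of the members was between -0.51 (without control 2) and -0.19 (without control 1). Fewer samples entered these fits, and a group left with 1 heart was assumed to vary like the other. The adjusted p of Lyve1 was 0.2305 to 0.7549 over the alternatives. With a replicate block, 0 members passed, 4 were at an unadjusted p under 0.05 (5.97% of all genes) and the median was -0.30; the labels do not say that a number marks a shared litter or day, and deviations of same-numbered hearts correlated at 0.31 over 14522 genes. Over all genes DESeq2 called 62 and the block 30, against 17 in limma, 6 in limma without a trend, and 6 to 33 with a library left out. Depth limits Cd68 most, with 43 to 83 reads per library.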
